A study of Mus musculus with 3 samples.

Results

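Cytotoxic lymphocytes kill by releasing granules that hold granzymes, a family of serine proteases, together with perforin, which opens the membrane of the target cell. The same cells secrete interferon gamma and chemokines that draw in further leukocytes, while a separate set of T cells, many of them with gamma-delta receptors, makes interleukin 17. The testis is known as a site where immune responses against germ cells are restrained, and it still holds resident T cells, natural killer (NK) cells and macrophages. The genes described here are 10 effector genes of lymphocytes, taken by symbol from 55450 genes in the files: the granzymes Gzma, Gzmb and Gzmk, the perforin gene Prf1, the granule membrane protein gene Nkg7, the chemokines Ccl5, Ccl4 and Ccl1, and the cytokines Ifng and Il17a. All 10 were found. They had been picked for their levels in lymphocytes of these libraries and for differences between the libraries, so their values are given as a description and no test was made.

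The libraries came from testes of mice given busulfan, a DNA-alkylating agent, so the control group carried the drug too. Spermatids were found in every library, so a stop of sperm production is not taken as given. The PBS group (PBS+Busulfan) was injected with buffered saline. The EXO group (EXO+Busulfan) was given blood exosomes, vesicles that cells release, of wild-type mice, and the dEXO group (dEXO+Busulfan) those of mice whose gut microbiota was out of balance. Strain, age, dose, time and the number of animals per library are not given in the sources used here. With 1 library in each group, differences are between 3 libraries and have no replicate check. All intervals are 95% intervals that cover counting error only. Molecules of a gene within a cell are not independent, so a single cell can decide a value, and such cells are named.

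The PBS, EXO and dEXO libraries held 97253862, 91787154 and 96655663 unique molecular identifiers (UMIs, 1 per captured RNA molecule), and 5267, 9860 and 9119 cells were used. Markers of spermatids, spermatocytes, spermatogonia, Sertoli and Leydig cells were detected in every library, all of those listed for the testis. The PBS library held 326 T or NK cells, the EXO library 523 and the dEXO library 425. A further 90, 143 and 114 cells carried T cell genes together with Leydig or stromal genes and were set aside as mixed. The median T or NK cell held 4016 UMIs in PBS, 2371 in EXO and 2051 in dEXO. Levels are therefore given as CPM, the usual scaling of a gene's UMIs to all UMIs of the class in that library, and shares of cells after thinning every cell to 1000 UMIs. Each pair of libraries shared 19 cell barcodes, none of them T or NK in both.

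The T or NK cells fell into 10 subclusters, made without the effector genes. CD8 T cells, which carry the co-receptor genes Cd8a and Cd8b1, came to 112, 203 and 132 cells in PBS, EXO and dEXO, and lay in 3 subclusters named here for a leading gene. The largest of them was the Ly6c2 cluster in PBS (83 cells), the Klrg1 cluster in EXO (88 cells, beside 60 in the Wscd2 and 55 in the Ly6c2 cluster) and the Wscd2 cluster in dEXO (85 cells). The Klrg1 cluster was led by NK receptor genes such as Klre1 and Klrd1 and the transcription factor gene Eomes. No Cd8 gene was among its top 10, yet its Cd8a and Cd8b1, at 761 and 1050 CPM, were the highest of the 10 subclusters. The mix of these 3 subclusters differed between the libraries, so CD8 T cells are compared between libraries only within subclusters. Whole-class levels are given to set the classes side by side. Other T cells numbered 187, 279 and 238. They included the Cd163l1 cluster (51, 64 and 64 cells), led by gamma-delta receptor genes such as Trdc, the Cd40lg cluster (115, 85 and 20 cells) and the Il13 cluster (12, 73 and 109 cells). The Il13 cluster had none of the 14 other T markers raised and 2 of 5 markers of group 2 innate lymphoid cells raised. It is placed here for its Cd3e, Cd3d and Cd3g, at 295, 1026 and 1473 CPM. Cd4, though not raised, was among its top 10 leading genes, and its class is uncertain. A cluster with raised NK markers held 9, 18 and 42 cells. Of these 69 cells 52 carried a UMI of a Cd3 gene, a T cell marker, which goes partly against an NK label, and it is called the NK receptor cluster here. Cycling T or NK cells numbered 18, 23 and 13.

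The promoters of Gzma, Gzmk, Gzmb and Il17a are shown because Gzma and Gzmk are neighbours that differed in where and in which library they were found, Gzmb is the granzyme of the other locus, and Il17a was found in a single subcluster. Gzma (ENSMUSG00000023132) lies on chromosome 13 at 113093825 to 113100981 (GRCm38, minus strand) and has 5 exons. Gzmk (ENSMUSG00000042385) lies on the same strand, its principal transcript at 113171638 to 113180897 with 5 exons, and no protein-coding gene lies in the 70656 bases between them. Gzmb (ENSMUSG00000015437) lies on chromosome 14 at 56258838 to 56262260 on the minus strand, and Il17a (ENSMUSG00000025929) on chromosome 1 at 20730905 to 20734496 on the plus strand. The windows run from 250 bases before to 50 bases after the RefSeq start site (GRCm38.p6), 5′ to 3′ on the gene's strand, so their last 50 bases are the start of the first exon. Capitals mark matches, on either strand, to 6 motifs: GGTGTGA, the half-site of T-box factors such as T-bet and eomesodermin, TGTGGT for RUNX factors, AGGTCA, the half-site read by ROR nuclear receptors, TGGAAA for NFAT, TGAGTCA for AP-1, and TATAAA, the TATA box. The windows of these 4 genes, at chr13:113100932-113101231, chr13:113180916-113181215, chr14:56262285-56262584 and chr1:20730655-20730954, read as follows.
Gzma: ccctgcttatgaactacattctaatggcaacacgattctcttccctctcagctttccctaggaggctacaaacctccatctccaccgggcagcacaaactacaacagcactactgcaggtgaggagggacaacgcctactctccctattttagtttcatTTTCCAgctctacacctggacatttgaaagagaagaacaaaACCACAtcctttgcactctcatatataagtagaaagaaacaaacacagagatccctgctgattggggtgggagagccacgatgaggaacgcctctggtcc
Gzmk: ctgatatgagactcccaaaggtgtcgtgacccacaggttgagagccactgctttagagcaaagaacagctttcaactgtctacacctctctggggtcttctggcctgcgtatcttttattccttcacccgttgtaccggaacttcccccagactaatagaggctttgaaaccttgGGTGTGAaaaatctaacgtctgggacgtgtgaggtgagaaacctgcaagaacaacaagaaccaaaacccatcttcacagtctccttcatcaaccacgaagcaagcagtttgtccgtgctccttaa
Gzmb: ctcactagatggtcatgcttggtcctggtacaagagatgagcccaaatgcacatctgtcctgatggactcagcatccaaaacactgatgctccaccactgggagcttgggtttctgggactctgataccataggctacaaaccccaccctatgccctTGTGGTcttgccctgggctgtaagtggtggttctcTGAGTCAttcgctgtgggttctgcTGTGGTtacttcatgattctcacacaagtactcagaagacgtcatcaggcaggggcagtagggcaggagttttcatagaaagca
Il17a: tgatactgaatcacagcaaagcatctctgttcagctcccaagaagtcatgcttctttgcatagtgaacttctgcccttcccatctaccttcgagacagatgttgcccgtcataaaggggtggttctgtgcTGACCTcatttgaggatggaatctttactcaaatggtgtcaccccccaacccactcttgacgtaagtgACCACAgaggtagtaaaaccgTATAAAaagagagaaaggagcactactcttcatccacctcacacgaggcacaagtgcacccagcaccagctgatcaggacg

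The neighbours Gzma and Gzmk shared none of these motifs. Gzmk held the T-box half-site, 75 bases upstream of its start, a motif in 3.98% of the 32851 RefSeq promoters of that length. Gzma held the RUNX motif 50 bases and the NFAT motif 91 bases upstream. Gzmb held RUNX motifs 34 and 93 bases upstream with the AP-1 motif between them, 58 bases upstream. Il17a held the ROR half-site 120 bases upstream, the RUNX motif 52 bases upstream and the TATA box 31 bases upstream. Over the 8 members with a promoter in the table (all but Ccl5 and Ccl4), RUNX matches stood in 5 and T-box half-sites in 2, Gzmk and Nkg7. The ROR half-site and the TATA box each stood in 2, Il17a and Ifng. NFAT matches stood in 2, Gzma and Ccl1, and AP-1 in 1, Gzmb. Among all promoters, 16.8% held the RUNX motif, 16.3% the ROR half-site, 21.4% the NFAT motif, 5.20% the AP-1 motif and 13.6% the TATA box. These are matches of letters and say nothing of binding.

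The first question was which cells carried each gene. Gzma, Gzmb, Prf1, Nkg7, Ccl5, Ccl4 and Ifng stood higher in CD8 T cells and the NK receptor cluster than in other T cells in every library, Gzmk in CD8 T cells, and Il17a in other T cells, while Ccl4 was also high in macrophages. Macrophages also held Ccl5, at 195 CPM in PBS, 124 in EXO and 67.6 in dEXO, on 5 cells each. PBS Sertoli cells held it at 78.0 CPM, where 1 cell held 103 of 104 UMIs. Unnamed cells held Ccl5 at 12.96, 18.8 and 17.0 CPM. In stromal cells, 8 of the 10 genes stood below 1 CPM in every library, the others being Ccl5, at 1.83 to 7.97 CPM, and Ccl4, at 0.397 to 1.95 CPM. The share of stromal cells with a UMI of Ccl5 was 0.552% in PBS, 0.836% in EXO and 0.428% in dEXO at medians of 4906, 2437.5 and 2164 UMIs, against thinned shares of 72.2%, 71.9% and 58.8% of T or NK cells. Other stray UMIs lay in single cells: 25 Gzma UMIs were in 1 of 80 PBS Sertoli cells and 11 in 1 of 1220 PBS Leydig cells. In dEXO, 38 of 98 Gzmk UMIs (38.8%) lay in other cells, against 5 of 101 in PBS, among them 18 UMIs in 16 of 896 spermatids.

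**Figure D1:**
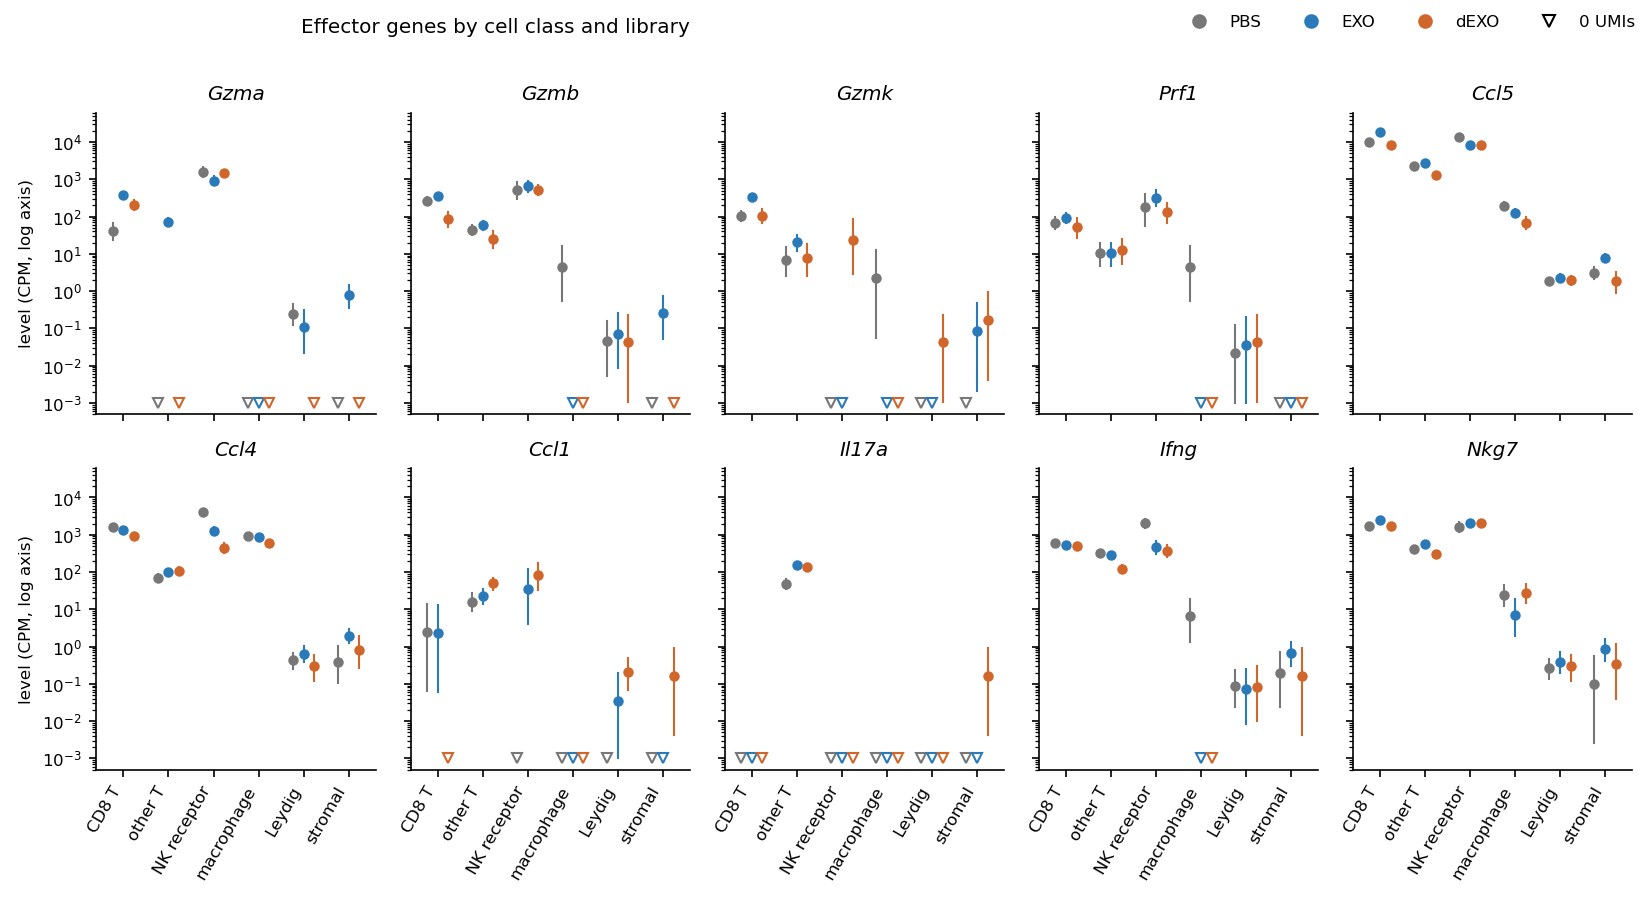
Level of each gene in CPM (log axis) in 6 cell classes of the PBS, EXO and dEXO libraries, with 95% Poisson intervals as lines; open triangles at the bottom mark classes with 0 UMIs. Gzma, Gzmb, Prf1, Nkg7 and Ccl5 sit highest in CD8 T cells and the NK receptor cluster, Gzmk in CD8 T cells, Il17a appears in other T cells, and Ccl4 also in macrophages at 602 to 898 CPM.

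Granzyme A (Gzma), a tryptase, had the same order of classes by CPM in every library. In PBS it stood at 1584 CPM in the NK receptor cluster (1156 to 2120), 40.6 CPM in CD8 T cells (23.2 to 65.9) and 0 in other T cells (0 of 187 cells, upper bound 4.22 CPM). In EXO the levels were 919 CPM (690 to 1199), 375 CPM (318 to 438) and 72.9 CPM (56.2 to 93.1). In dEXO they were 1484 CPM (1235 to 1768), 208 CPM (153 to 276) and 0 (upper bound 5.88 CPM). By CPM the NK receptor cluster was highest in all 3 libraries, and the intervals of neighbouring classes did not overlap. In PBS 41 of the cluster's 45 UMIs lay in 1 cell. Thinned shares of cells overlapped between the NK receptor cluster and CD8 T cells in every library. They were 11.1% (0.281 to 48.2) and 1.87% (0.227 to 6.59) in PBS. EXO gave 11.8% (1.46 to 36.4) and 10.6% (6.62 to 16.0), and dEXO 21.4% (10.3 to 36.8) and 5.88% (2.40 to 11.7). Of the 64 EXO Gzma UMIs in other T cells, 55 lay in 1 cell of the Il13 cluster. Within the NK receptor cluster, the cells without a Cd3 UMI held 156 Gzma UMIs, at 2783 CPM, and the 52 cells with one held 68, at 589 CPM. Gzmb there went the other way when the libraries were pooled, at 161 CPM without and 763 CPM with a Cd3 UMI. In PBS the 2 values were close, at 452 and 562 CPM on 4 and 11 UMIs. EXO had 3 and 35 UMIs, most of the 35 in a single cell named below. dEXO had 2 UMIs without and 42 with a Cd3 UMI, at 120 and 621 CPM.

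Granzyme B (Gzmb), which cleaves after aspartate and starts apoptosis, was, among these classes, highest by CPM in the NK receptor cluster. PBS stood there at 528 CPM (296 to 871), EXO at 646 CPM (457 to 887) and dEXO at 522 CPM (379 to 701). CD8 T cells stood at 269 CPM (220 to 325), 346 CPM (292 to 407) and 86.7 CPM (52.9 to 134), and other T cells at 44.6, 59.3 and 25.5 CPM. In EXO, 32 of the 38 UMIs of the NK receptor cluster lay in 1 cell. The cluster's thinned shares of cells with a Gzmb UMI were 44.4%, 17.6% and 45.2% in PBS, EXO and dEXO. Those of CD8 T cells were 17.8%, 25.5% and 6.72%, so EXO had the other order, and only in dEXO did the intervals not overlap. With classes taken from each cell's own UMIs, NK cells stood at 452, 98.2 and 84.6 CPM, on 4, 3 and 1 UMIs. CD8 T cells then stood at 348, 344 and 137 CPM, above NK cells in EXO and dEXO. Cycling T or NK cells of PBS were also high, at 357 CPM (268 to 465) in 9 of 18 cells. Granzyme K (Gzmk), a tryptase like its neighbour, had another order. It stood at 104 CPM in PBS CD8 T cells (74.6 to 141), 336 CPM in EXO (283 to 397) and 104 CPM in dEXO (66.6 to 155), but the NK receptor cluster held 0, 0 and 2 UMIs. Gzma thus reached its highest level in the class where Gzmk was near 0. Cycling T or NK cells held Gzmk too, at 72.6 CPM in PBS (36.3 to 130), 172 CPM in EXO (114 to 251) and 10.9 CPM in dEXO (0.276 to 60.8). Other T cells held Gzmk at 6.86, 20.5 and 7.97 CPM.

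Perforin (Prf1) was low throughout. The NK receptor cluster stood at 176 CPM in PBS (57.2 to 411), 323 CPM in EXO (195 to 505) and 131 CPM in dEXO (65.2 to 234), and CD8 T cells at 68.5, 93.1 and 52.0 CPM. Only in EXO did the intervals of these classes not overlap. Nkg7, which takes part in granule release, was at 1756 CPM or more in CD8 T cells of every library and at 306 to 561 CPM in other T cells. Its level in the NK receptor cluster ran from 1655 to 2008 CPM.

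Ccl5 (RANTES), a chemokine that draws in T cells and monocytes, was carried by nearly every CD8 T cell: 109 of 112 in PBS, 196 of 203 in EXO and 121 of 132 in dEXO. The Cd163l1 cluster lacked it, with UMIs in 4 of 51 PBS cells and in 0 of 64 cells of EXO and of dEXO. Each of those zeros allows a share of up to 4.69% of cells with a UMI by a limit of 3 counts of the total, and up to 5.60% by the Clopper-Pearson interval. Ccl4, a chemokine made by activated lymphocytes and macrophages, stood at 1586 CPM in PBS, 1334 in EXO and 953 in dEXO CD8 T cells, at 898, 854 and 602 CPM in macrophages and at 70.9 to 105 CPM in other T cells. Macrophages gave 25.6%, 28.0% and 33.5% of all Ccl4 UMIs. Ifng, whose product activates macrophages, was more even between classes, at 589, 537 and 490 CPM in CD8 T cells and 334, 278 and 123 CPM in other T cells. In the PBS NK receptor cluster both were high, with Ccl4 at 3978 CPM and Ifng at 2042 CPM on 9 cells, where 1 cell gave 97 of 113 Ccl4 UMIs and 37 of 58 Ifng UMIs.

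Il17a and Ccl1 stood apart from the rest. Il17a, which acts on stromal and epithelial cells, had all of its T or NK UMIs in the Cd163l1 cluster, 43 in PBS, 134 in EXO and 84 in dEXO. CD8 T cells and the NK receptor cluster held 0 in every library. Ccl1, the ligand of Ccr8, was carried by 5 PBS, 7 EXO and 4 dEXO cells. In dEXO 1 cycling cell held 127 of its 165 UMIs and 1 cell of the Foxp3 cluster, led by genes of regulatory T cells such as Foxp3 and Ctla4, held 31.

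The second question was which of these genes differed between the libraries over all T or NK cells. A gene was called apart when its log2 ratio was at least 1 in size on at least 50 UMIs over both libraries. Between EXO and PBS, 3 of 9 members that had enough UMIs were higher (Gzma, Gzmk and Il17a) and 0 lower, where 2.34% of 6271 genes were higher and 1.00% lower (3.35% in either direction). Ccl1 had too few UMIs in this pair. Between dEXO and PBS, 3 of 10 were higher (Gzma, Ccl1 and Il17a) and 1 lower (Ccl4), against 6.70% and 1.02% of 5866 genes (7.72% in either). Between dEXO and EXO, 1 was higher (Ccl1) and 2 lower (Gzmk and Ccl5), against 5.32% and 0.577% of 6070 genes (5.90% in either). The members had been chosen on these contrasts, so nothing is read from these counts beside those shares. The median log2 ratio of the members was 0.57, -0.27 and -0.59, against 0.03, 0.06 and 0.05 over all genes with enough UMIs. The pairs share libraries, so their values are not independent of each other.

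**Figure D2:**
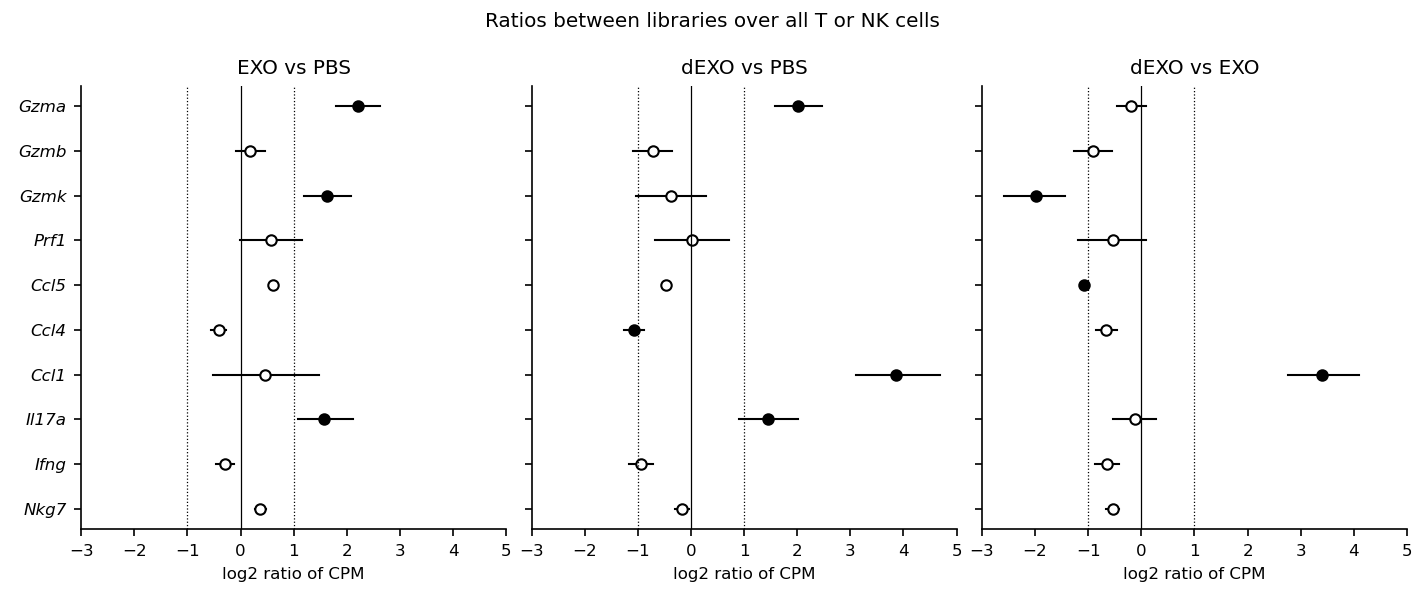
log2 ratio of CPM over all T or NK cells for each gene (rows) and pair of libraries (panels), with 95% counting intervals; filled circles are at least 2-fold apart on at least 50 UMIs, and dotted lines mark log2 ratios of -1 and 1. Gzma and Il17a lie to the right in both panels against PBS, and Gzmk and Ccl5 to the left between dEXO and EXO.

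Gzma stood at 42.1 CPM in PBS (61 UMIs in 5 of 326 cells), 194 CPM in EXO (293 UMIs in 37 of 523 cells) and 170 CPM in dEXO (176 UMIs in 23 of 425 cells). PBS was low and the intervals of EXO and dEXO overlapped. The log2 ratio was 2.20 for EXO to PBS (1.80 to 2.62), 2.02 for dEXO to PBS (1.59 to 2.46) and -0.19 for dEXO to EXO (-0.47 to 0.09). One PBS cell held 41 of the 61 UMIs. Without the highest cell of each library the ratios were 3.51 and 3.36. When each subcluster was given the same weight in every library they were 1.16 and 0.80, so dEXO no longer reached 2-fold. The thinned share of cells with a Gzma UMI was 0.938% for PBS (0.194 to 2.72), 4.58% for EXO (2.93 to 6.80) and 4.17% for dEXO (2.45 to 6.59).

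The subclusters showed where the Gzma UMIs of each library lay. In the Ly6c2 cluster it stood at 49.3 CPM in PBS (28.2 to 80.1), 136 CPM in EXO (85.4 to 206) and 374 CPM in dEXO (252 to 533), the last on 3 of 32 cells with 26 of 30 UMIs in 1. In the Klrg1 cluster 18 of 88 EXO cells held 120 UMIs, at 703 CPM (583 to 841). The 13 PBS cells held 0, and 4 of 15 dEXO cells held 5 UMIs, at 166 CPM (53.9 to 387). By UMIs, EXO was at least 9.13-fold higher than PBS there. By cells, the thinned shares overlapped, at 0 of 13 in PBS (up to 24.7%) and 17.0% in EXO (9.87 to 26.6), so on so few PBS cells the difference was not detectable. In the NK receptor cluster the log2 ratio of EXO to PBS was -0.79 (-1.38 to -0.18) and of dEXO to PBS -0.09 (-0.60 to 0.43), on 2 of 9 PBS cells. That cluster had 42 cells in dEXO and gave 125 of its 176 Gzma UMIs.

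Gzmk stood at 40.03 CPM in PBS (58 UMIs in 39 cells), 123 CPM in EXO (186 UMIs in 102 cells) and 30.9 CPM in dEXO (32 UMIs in 26 cells). EXO was the high library, and the other two overlapped. The log2 ratio was 1.62 for EXO to PBS (1.19 to 2.07), -1.99 for dEXO to EXO (-2.58 to -1.44) and -0.37 for dEXO to PBS (-1.04 to 0.28). No cell held more than 12 UMIs, and the thinned shares were 3.12%, 12.5% and 3.68%. In the Klrg1 cluster Gzmk was in 53 of 88 EXO cells at 562 CPM (456 to 687), against 144 CPM in PBS (57.8 to 296) and 332 CPM in dEXO (159 to 610). In the Ly6c2 cluster it stood at 98.6, 149 and 125 CPM, with overlapping intervals. In the Wscd2 cluster it was 242 CPM in EXO (150 to 369) and 33.3 CPM in dEXO (9.06 to 85.2). With subclusters weighted alike the ratio of dEXO to EXO was -0.98, just short of 2-fold.

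Gzmb was below the 2-fold limit in all 3 pairs, at 148 CPM in PBS (129 to 169), 168 CPM in EXO (148 to 190) and 89.9 CPM in dEXO (72.6 to 110). dEXO was the low library, with log2 ratios of -0.72 to PBS (-1.08 to -0.36) and -0.90 to EXO (-1.26 to -0.55). Within the Ly6c2 cluster it was 225 CPM in PBS (176 to 283), 105 CPM in EXO (61.3 to 169) and 62.3 CPM in dEXO (20.2 to 145). Log2 ratios to PBS there were -1.10 (-1.95 to -0.32) and -1.85 (-3.52 to -0.57). The thinned shares of cells with a Gzmb UMI there were 12.0% (5.93 to 21.0), 11.1% (4.19 to 22.6) and 6.25% (0.766 to 20.8), and all of these intervals overlapped. In the Klrg1 cluster it was 555, 674 and 299 CPM. Prf1 stood at 30.4, 44.97 and 30.9 CPM, and each interval of its log2 ratios held 0.

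**Figure D3:**
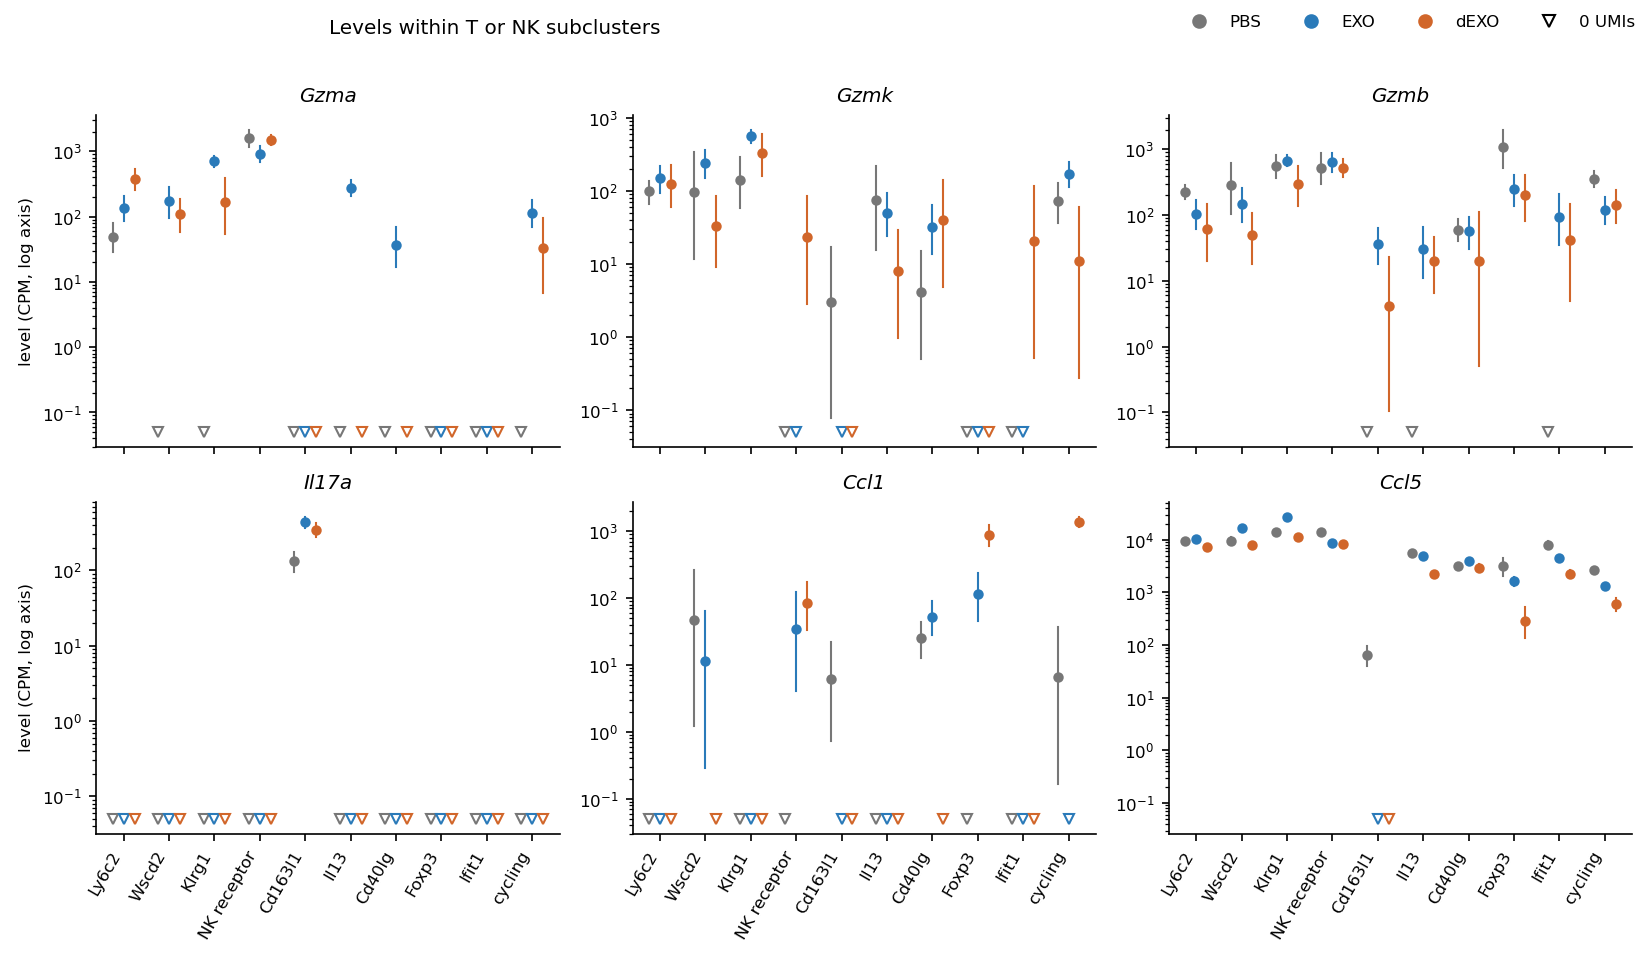
Level in CPM (log axis) of 6 genes in the 10 T or NK subclusters of the PBS, EXO and dEXO libraries, with 95% Poisson intervals; open triangles at the bottom mark subclusters with 0 UMIs. Gzma reaches 703 CPM in the EXO Klrg1 cluster against 0 UMIs in PBS, Il17a is confined to the Cd163l1 cluster among these subclusters, and the high dEXO values of Ccl1 rest on 1 cell each.

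Il17a stood at 29.7 CPM in PBS, 88.6 CPM in EXO and 81.2 CPM in dEXO over T or NK cells. Within the Cd163l1 cluster, which was of nearly the same size in the 3 libraries, it was at 131 CPM in PBS (95.1 to 177), 436 CPM in EXO (365 to 516) and 344 CPM in dEXO (274 to 426). The cells with a UMI were 6 of 51, 20 of 64 and 15 of 64. PBS was low, and EXO and dEXO overlapped. The log2 ratios within the cluster were 1.73 for EXO to PBS (1.22 to 2.26), 1.39 for dEXO to PBS (0.84 to 1.95) and -0.34 for dEXO to EXO (-0.75 to 0.06). One PBS cell held 30 of the 43 UMIs. Without the highest cell of each library the ratios over T or NK cells were 3.04 and 2.72. After thinning, 5.88% of PBS (1.23 to 16.2), 15.6% of EXO (7.76 to 26.9) and 18.8% of dEXO cells (10.1 to 30.5) carried a UMI, with overlapping intervals. With the mixed cells added, 27 PBS, 70 EXO and 0 dEXO UMIs joined, and the ratio of dEXO to PBS was 0.64.

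Ccl1 was at 11.04 CPM in PBS (6.31 to 17.9), 15.2 CPM in EXO (9.64 to 22.8) and 160 CPM in dEXO (136 to 186). dEXO was high, with log2 ratios of 3.85 to PBS (3.11 to 4.69) and 3.39 to EXO (2.76 to 4.09). This rested on the 2 dEXO cells named above. The thinned share of cells was 0.312%, 0.797% and 0.735%. Without the highest cell of each library the dEXO to EXO ratio was 2.002, and the dEXO to PBS ratio was 3.43 on too few UMIs to be called. One mixed PBS cell, set aside here, held 35 Ccl1 UMIs.

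Ccl5 stood at 4640 CPM in PBS, 7052 in EXO and 3343 in dEXO, in 262 of 326, 399 of 523 and 278 of 425 cells. EXO was high and dEXO low, with a log2 ratio of -1.08 between dEXO and EXO (-1.13 to -1.02), 0.60 for EXO to PBS and -0.47 for dEXO to PBS. The Klrg1 cluster showed the same order, at 13970 CPM in PBS, 26695 CPM in EXO and 11083 CPM in dEXO. In the Ly6c2 cluster, EXO and PBS were close, at 10138 and 9566 CPM. Subclusters weighted alike gave -0.87 for dEXO to EXO, short of 2-fold. Ccl4 was highest in PBS and lowest in dEXO, at 658 CPM in PBS (617 to 701), 494 CPM in EXO (459 to 531) and 313 CPM in dEXO (280 to 349), with a dEXO to PBS log2 ratio of -1.07 (-1.26 to -0.89). That ratio was -0.70 with doublets removed at the expected rate and -0.85 with the mixed cells added, both short of 2-fold. Within the Ly6c2 cluster it stood at 1457, 1715 and 1594 CPM, with overlapping intervals. In the Klrg1 cluster it was 2383 CPM in PBS, 1136 in EXO and 431 in dEXO.

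An exon of Ifng is overlapped by the span of the gene model Gm49751 on the same strand. The exons of Gm49751 were not examined, so how far the counts of Ifng are affected is not known. Ifng stood at 437 CPM in PBS (403 to 472), 358 CPM in EXO (328 to 389) and 228 CPM in dEXO (200 to 259). The dEXO to PBS log2 ratio was -0.94 (-1.16 to -0.72), just inside the 2-fold limit. In other T cells it passed that limit, at -1.44 to PBS (-1.82 to -1.08) and -1.18 to EXO (-1.57 to -0.80). In the Ly6c2 cluster dEXO and PBS were close, at 548 CPM (398 to 735) and 641 CPM (557 to 734). The Cd40lg cluster, with Ifng at 506 CPM in PBS, 525 in EXO and 239 in dEXO, made up 115 of 187, 85 of 279 and 20 of 238 other T cells. The Il13 cluster made up 12, 73 and 109 of them. Its thinned shares of cells with an Ifng UMI were 27.3%, 20.8% and 17.9%, with overlapping intervals. The mix of other T cells thus differed between the libraries, and its part in the ratios of that class was not tested. Nkg7 was at 883, 1141 and 787 CPM, with no log2 ratio beyond 0.54 in size.

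Few single cells combined granzymes, though over the pooled cells a granzyme was more frequent among carriers of another than among all cells. After thinning, 13.1% of 320 PBS, 22.5% of 502 EXO and 14.5% of 408 dEXO T or NK cells carried a UMI of at least 1 of the 3 granzymes, and 3, 33 and 6 cells carried more than 1. Of the 1230 thinned cells, 130 carried Gzmb, 88 Gzmk and 47 Prf1. Among the 43 Gzma cells, 15 carried Gzmb, 11 carried Gzmk and 9 carried Prf1. Of the 88 Gzmk cells, 26 carried Gzmb. These pairs lay mostly in EXO, which held 10 of the 11 Gzma and Gzmk cells and 23 of the 26 Gzmb and Gzmk cells. Within single libraries not every pair showed the higher frequency. In dEXO 1 of 33 Gzmb cells carried Gzmk, against 15 of all 408 cells, and in PBS 0 of 3 Gzma cells carried Gzmk. In PBS 2 of 32 Gzmb cells carried Gzmk, against 10 of all 320 cells. Gzma cells nearly all carried Ccl5 and Nkg7, 41 of 43 in each case, whereas 832 and 598 of all 1230 cells did. None of the 25 Il17a cells carried a granzyme, Prf1, Ccl5 or Ifng UMI at this depth, and each such 0 of 25 allows a share of up to 12% by the limit of 3 counts.

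**Figure D4:**
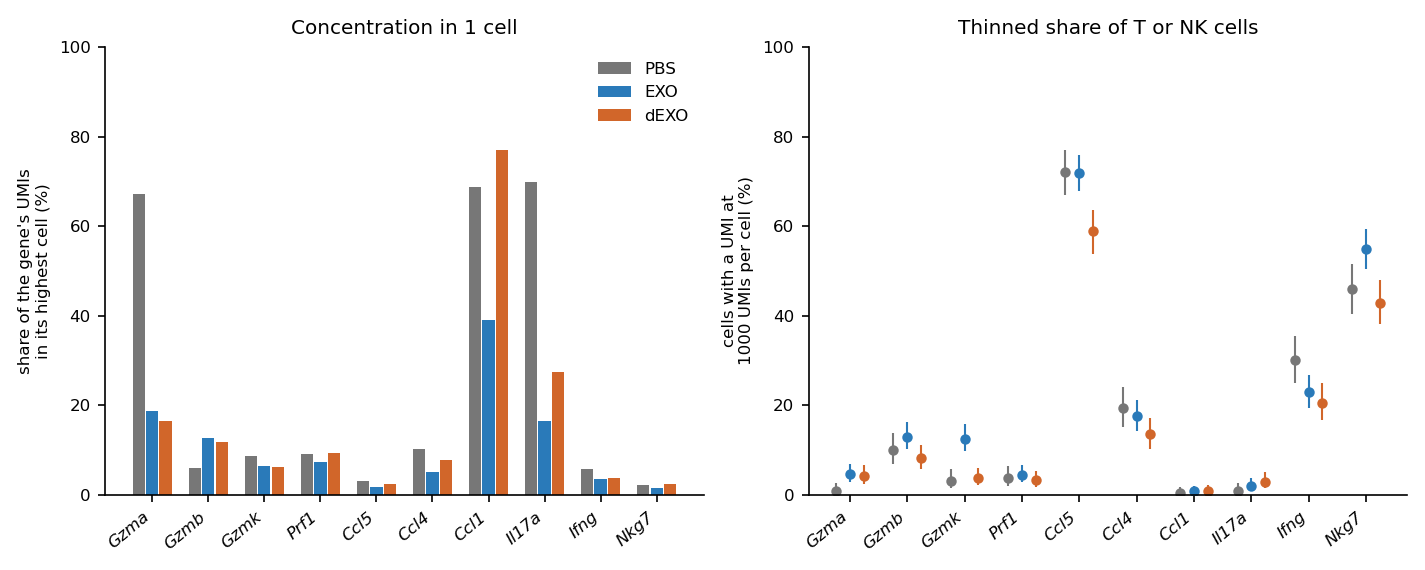
Left, share of each gene's T or NK UMIs that lay in the single cell with the most (bars, %); right, share of T or NK cells with a UMI after thinning to 1000 UMIs per cell (points, %, with 95% Clopper-Pearson intervals). In PBS 1 cell holds 67.2% of Gzma and 69.8% of Il17a UMIs and in dEXO 1 cell holds 77.0% of Ccl1 UMIs, while Gzmk is spread over cells and most frequent in EXO.

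Other genes of the same pathways, 98 in 13 lists, were read with the same limits. Between EXO and PBS, 4 of 59 with enough UMIs were higher and 0 lower, against the shares of 2.34% and 1.00% above. By log2 ratio these were Gzmc, another granzyme, at 1.18 (0.94 to 1.43), the receptor gene Klrg1 at 2.94 (2.03 to 3.99), Eomes, a T-box factor of effector lymphocytes, at 1.26 (0.63 to 1.92), and S1pr1, which guides lymphocytes out of tissue, at 1.06 (0.31 to 1.86). Between dEXO and PBS, where 6.70% of all genes were higher and 1.02% lower, 1 of 53 was higher, the chemokine gene Xcl1 at 1.07 (0.86 to 1.28), and 1 lower, Tbx21, which encodes T-bet, at -1.53 (-2.39 to -0.75). Between dEXO and EXO, where 5.32% of all genes were higher and 0.577% lower, 1 of 57 was higher, Lta, which encodes lymphotoxin alpha, at 23.1 CPM in EXO and 53.2 CPM in dEXO (log2 ratio between 0.56 and 1.85), and 5 were lower, among them Klrg1 at -2.91 (-4.17 to -1.87), Eomes at -1.98 (-2.95 to -1.12), the interleukin 1 receptor gene Il1r1 at -1.35 (-2.46 to -0.36) and the cytokine gene Csf2 at -1.14 (-1.90 to -0.43). Klrg1 and Eomes were among the 10 leading genes of the Klrg1 cluster, which held 13 PBS, 88 EXO and 15 dEXO cells. Their ratios are over all T or NK cells and were not read within subclusters. The part of that cluster's size in them was not tested. The lists were set with earlier results of these data known. Of the 12 listed granule proteases and granule proteins, 6 had enough UMIs, and their median log2 ratio lay between -0.15 and 0.00 in the 3 pairs.

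The receptors of the secreted members lay partly in other cells. Ifngr1, the chain that binds interferon gamma, was at 239 to 295 CPM in T or NK cells, 188 to 255 CPM in macrophages and 86.3 to 105 CPM in stromal cells. Ifngr2, the chain that signals with it, was at 4.63 to 12.6 CPM in T or NK cells but at 118 to 124 CPM in stromal, 97.1 to 145 CPM in macrophages and 166 to 188 CPM in Sertoli cells. Of 8 listed interferon gamma targets, 5 had enough UMIs in T or NK cells, and 0 were apart in any pair, with median log2 ratios of 0.14, 0.09 and -0.01. The list was read in T or NK cells only, and Cxcl9, which is on it, differed in macrophages. It stood there at 504 CPM in PBS (441 to 574), 57.4 CPM in EXO (39.3 to 81.0) and 8.44 CPM in dEXO (2.30 to 21.6). Spermatogonia held Cxcl9 at 67.7, 0 and 0.343 CPM, and stromal cells at 0, 0.424 and 0.500 CPM. The number of cells behind these UMIs was not counted. Il17rc, a chain of the interleukin 17 receptor, was at 29.9 to 35.5 CPM in stromal and 13.7 to 17.7 CPM in Leydig cells, and at 3.87 CPM or less in T or NK cells. Its partner chain Il17ra had another order, at 27.1 to 45.5 CPM in T or NK cells, 19.7 to 27.3 CPM in stromal and 5.47 to 7.39 CPM in Leydig cells. Serpinb9, an inhibitor of granzyme B, was at 26.8 to 34.2 CPM in Leydig and 19.4 to 27.0 CPM in stromal cells.

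Genes most like each member over the 9 values of CD8 T cells, other T cells and the NK receptor cluster in 3 libraries were found among 4712 genes by Pearson r of log2(CPM + 10). The 9 values share libraries and depth, so r is a description. Gzma was most like Pnpla2 (r = 0.973) and Klre1 (0.942), and Prf1 like Ugcg (0.973) and Klre1 (0.971). Gzmb was most like Ugcg (0.974) and Ctsd (0.963), and Gzmk like Cd8a (0.949) and Cd3e (0.888). Runx3 (0.954) was among the genes most like Ccl5, and Samd3 (0.966) was the one most like Nkg7. Il17a was most like Cysltr1 (0.993) and Blk (0.973), Ifng like Trip11 (0.947) and Cblb (0.944), Ccl4 like Tacc1 (0.933) and Dusp2 (0.904), and Ccl1 like Dtymk (0.925) and Pdia4 (0.907). Several of these genes, such as Pnpla2 at 29.7 to 71.2 CPM, ranged far less over the 9 values than the member.

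Markers of other cells in T or NK cells differed between the libraries. Spermatocyte markers, 6 of 6 present in each library, summed to 129 CPM in PBS, 363 in EXO and 1016 in dEXO, and spermatid markers (7 of 7) to 144, 184 and 310 CPM. Leydig markers (6 of 6) summed to 475, 582 and 497 CPM, and Sertoli markers (4, 6 and 7 of 7) to 78.7, 163 and 260 CPM. Macrophage markers (7, 6 and 8 of 9) summed to 22.2 to 29.1 CPM, with Adgre1 and Cd14 at 0 in PBS and EXO, Mrc1 at 0 in EXO and Cd68 at 0 in dEXO, and all 5 neutrophil and all 5 mast cell markers were at 0. The members stood near 0 in spermatids and Leydig cells, where Gzma, Gzmb and Prf1 in Leydig cells reached no more than 0.247 CPM. The part of these markers and of the depth of cells in the differences was not tested.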

How the data were processed

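The authors deposited raw counts of UMIs per gene and barcode, made with a 10x Genomics 3' kit per the labels' protocols and with Cell Ranger, version 5.0.1 per the file headers. Seurat and the build GRCm38 are named in the submitters' processing notes, and later steps and filters are not given in the sources used here. The labels give testis as tissue, while the extraction text speaks of aorta.

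Barcodes under 500 UMIs or 300 genes, or over 20% mitochondrial UMIs, were removed (243, 366 and 641). Scrublet (scanpy 1.11.5) called 4, 2 and 0 doublets where loading would give 4.22%, 7.89% and 7.30%, so it did not work and doublets remained. Leiden clustering (leidenalg 0.10.2) at resolution 1 on 2000 variable genes without the members gave 24 clusters, named from 20 marker lists, each name needing 3 raised markers. T or NK cells were clustered again, leaving out genes higher in other classes, and subclusters with 3 raised markers of another class were set aside as mixed. Naming and this guard were revised after the clusters were seen. The NK receptor name needed 6 raised NK markers.

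Counts were summed per class and library. Levels have exact Poisson intervals, ratios exact conditional binomial intervals and shares Clopper-Pearson intervals. A count of 0 was set to a floor of 3 in ratios and, where said, in limits on shares. The ratios were tested on simulated counts. The members and gene lists were chosen with earlier results of these data known. Named were the members, up to 4 genes per list and pair with a log2 ratio of at least 1, and the 2 genes most like each member with at least 100 UMIs; 1 gene that this rule names is not reported here. Motifs for AP-1 and TATA were added after the promoters had been seen. Gene positions are from GENCODE M21, promoters from RefSeq. In all, 13 alternatives were run. Python 3.11.15, numpy 2.4.6, scipy 1.17.1 and pandas 2.3.3 were used.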

Additional observations from a re-analysis of the deposited data

How the results depend on the processing

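No paired analysis was possible because each group had 1 library, and no replicate could be left out. No alternative turned the sign of a ratio that was at least 2-fold apart. Not all counts of members apart held. With doublets removed at the expected rate, or clusters made with the members, 1 member (Ccl1) was lower in EXO than in PBS against 0, 0 were lower in dEXO than in PBS against 1 (Ccl4), and 1 against 2 was lower in dEXO than in EXO, since Ccl5 fell short of 2-fold. Without the highest cell of each library, 2 against 3 were higher in dEXO than in PBS, Ccl1 having too few UMIs. Thinned to 1000 UMIs, 2 against 3 were higher in EXO than in PBS, 1 against 3 was higher in dEXO than in PBS and 0 against 1 higher in dEXO than in EXO, where Ccl1 and Il17a had too few UMIs, and 0 against 1 was lower in dEXO than in PBS. With the mixed subclusters, 0 against 1 was lower and 2 against 3 higher in dEXO than in PBS, Il17a falling short at 0.64. With subclusters weighted alike, 2 against 1 were lower in dEXO than in PBS (Gzmb joining Ccl4), 2 against 3 higher (Gzma falling short at 0.80) and 0 against 2 lower in dEXO than in EXO. The causes were not tested. Adding the mixed subclusters, equal weights and leaving out the highest cell were chosen after seeing the data. Classes taken from each cell's own UMIs moved 40 of 90 levels beyond their intervals, and Gzma in other T cells was then at 4.24, 5.81 and 74.8 CPM. Depth limits Ccl1 and Prf1, Gzma in PBS, Gzmk and Il17a in PBS and dEXO, and Gzmb in dEXO, which rest on under 100 UMIs or on a few cells.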
